A study of Homo sapiens with 4 samples.

Results

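NRF2 (gene NFE2L2), its inhibitor KEAP1 and 7 enzymes of antioxidant defence (HMOX1, GCLM, GCLC, NQO1, TXNRD1, SRXN1 and GSR) were followed in human multiple myeloma cells, a cancer of antibody-producing plasma cells, in which the cytokine MIF had been lowered. The 9 genes were listed by their place in the pathway. A probe set counted as named where the platform annotation gave it 1 gene symbol. A gene was read from its named probe set on the array, or from the one with the highest mean where it had several. Of the 9 genes, 6 had a named probe set, among 14884 named genes in all. GCLM and GCLC, the subunits of the enzyme that starts glutathione synthesis, and the quinone reductase NQO1 had no expression value analysed here.

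The study used 2 established myeloma lines, ARP-1 and MM.1S. Each line was infected with lentivirus carrying a short hairpin RNA, aimed at MIF in the MIF-KO cells and a control sequence in the CTR-KO cells, and was then sorted for GFP. The 4 arrays thus hold CTR-KO ARP-1, MIF-KO ARP-1, CTR-KO MM.1S and MIF-KO MM.1S, 1 array each, all from cells that carry a hairpin virus and a green marker. A hairpin lowers an RNA and leaves the gene in place, although the labels say knockout. No label tells how many cultures or clones stand behind an array. Any p-value rests on how the 2 lines disagree, part of which may be technical, and on the variance of all genes. Spread among cultures of a line is not measured. The arrays are named here by their titles and genotype labels. For both ARP-1 arrays the free-text description states the other condition, and every direction given for ARP-1 turns round if the descriptions are right. By the descriptions, MIF would be 2.02-fold higher in ARP-1 with the MIF hairpin than with the control hairpin, and by the titles it is lower.

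NRF2 is a transcription factor that KEAP1 holds in the cytoplasm and hands to a CUL3 ubiquitin ligase for destruction. Oxidants and electrophiles modify cysteines of KEAP1, NRF2 then accumulates, pairs with a small MAF protein and binds antioxidant response elements near genes of glutathione, thioredoxin and heme metabolism. NRF2 is controlled mainly at the protein level, which an RNA array does not measure. Plasma cells secrete large amounts of disulfide-bonded antibody and therefore depend on redox buffering.

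The arrays were alike in scale, with median probe set intensities of 13.1 to 13.3. MIF itself had an intensity of 1092 in CTR-KO ARP-1, 541 in MIF-KO ARP-1, 1012 in CTR-KO MM.1S and 405 in MIF-KO MM.1S, which is 49.6% and 40.0% of control. Of 10 plasma cell markers 7 were measured, with a summed intensity of 5814 to 6856. IRF4 lay between 3579 and 4380, XBP1 between 930 and 1321 and MZB1 between 399 and 774. SDC1 and CD38 were lower on the MIF-KO than on the CTR-KO side of ARP-1, at 184 against 471 and at 41.8 against 113. Of the 7 markers 4 went the other way in ARP-1, with IRF4, XBP1, MZB1 and SLAMF7 higher in MIF-KO. SLAMF7 lay between 62.1 and 122 and POU2AF1 between 32.7 and 37.3. The 2 stromal markers measured, LUM and DCN of a list of 5, were near the floor of the arrays, at 9.93 to 11.7 together. Of the other cell types listed, 2 of 5 T cell genes were measured, with a summed intensity of 44.0 to 64.1, and 4 of 5 monocyte and macrophage genes, with 92.1 to 261. Within a line each condition had 1 array, so differences per line carry no error and no test. In RNA from a whole culture, fewer expressing cells and less RNA per cell cannot be told apart.

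None of the 6 measured genes passed the test between MIF-KO and CTR-KO. All 6 measured genes passed the filter on low values and were tested in limma, with cell line as a term and Benjamini-Hochberg adjustment. The test called 0 of the 6, against 0% of all 7442 tested genes, and each of the 6 had an adjusted p of 0.99995. At an unadjusted p below 0.05 it had 0 of the 6 and 29 of the 7442. The mean log2 differences of the 6 genes lay between -0.45 (HMOX1) and 0.12 (SRXN1), with a median of -0.07, beside a median of 0.01 over all tested genes. The error of this test combines the disagreement of the lines, the only residual degree of freedom (1), with a variance prior over all genes worth 3.99 degrees of freedom, so even a gene on which the lines were close has a wide interval. With the ARP-1 arrays exchanged as their descriptions have it, 401 genes of the whole array passed, with 0 of the 6 among them, and the lowest limma adjusted p of the 6 were those of NFE2L2 (mean difference -0.47, adjusted p 0.16) and HMOX1 (0.55, adjusted p 0.17).

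Of the regulators, NFE2L2 had opposite differences in the lines. Its intensity was 172 in CTR-KO ARP-1, 223 in MIF-KO ARP-1, 248 in CTR-KO MM.1S and 169 in MIF-KO MM.1S. It was thus higher in MIF-KO ARP-1 and lower in MIF-KO MM.1S than on the control array of the line, and the control arrays held both the second lowest and the highest value. The log2 difference, MIF-KO minus CTR-KO, was 0.37 in ARP-1 against -0.56 in MM.1S. The MM.1S difference lay at percentile 3.39 of all tested genes in that line, and the ARP-1 difference at percentile 81.3 in its own. The mean over both lines was -0.09 (SE 0.36, n = 2 lines), and its 95% interval ran from -1.02 up to 0.84 (49.2% to 179% of control). In MM.1S the control array was 1.47-fold above the MIF-KO array, just short of the 1.5-fold used for counts, and 1.504-fold after quantile normalization.

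KEAP1, the substrate adaptor that presents NRF2 for destruction, had nearly equal values on the arrays of a line. Its intensity was 500.4 in CTR-KO ARP-1, 479 in MIF-KO ARP-1, 412 in CTR-KO MM.1S and 406 in MIF-KO MM.1S. Both ARP-1 arrays lay above both MM.1S arrays. The log2 difference between conditions was -0.06 in ARP-1 against -0.02 in MM.1S, and the ARP-1 sign turned with quantile normalization (0.01). The mean was -0.04 (SE 0.30, n = 2 lines), with a 95% interval of 57.3% to 165% of control, so a change of moderate size in either direction is within the error. Between lines, KEAP1 differed by -0.28 (CTR-KO) and -0.24 (MIF-KO), MM.1S minus ARP-1, and its mean of -0.26 (SE 0.30) had a limma adjusted p of 0.9999.

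**Figure D1:**
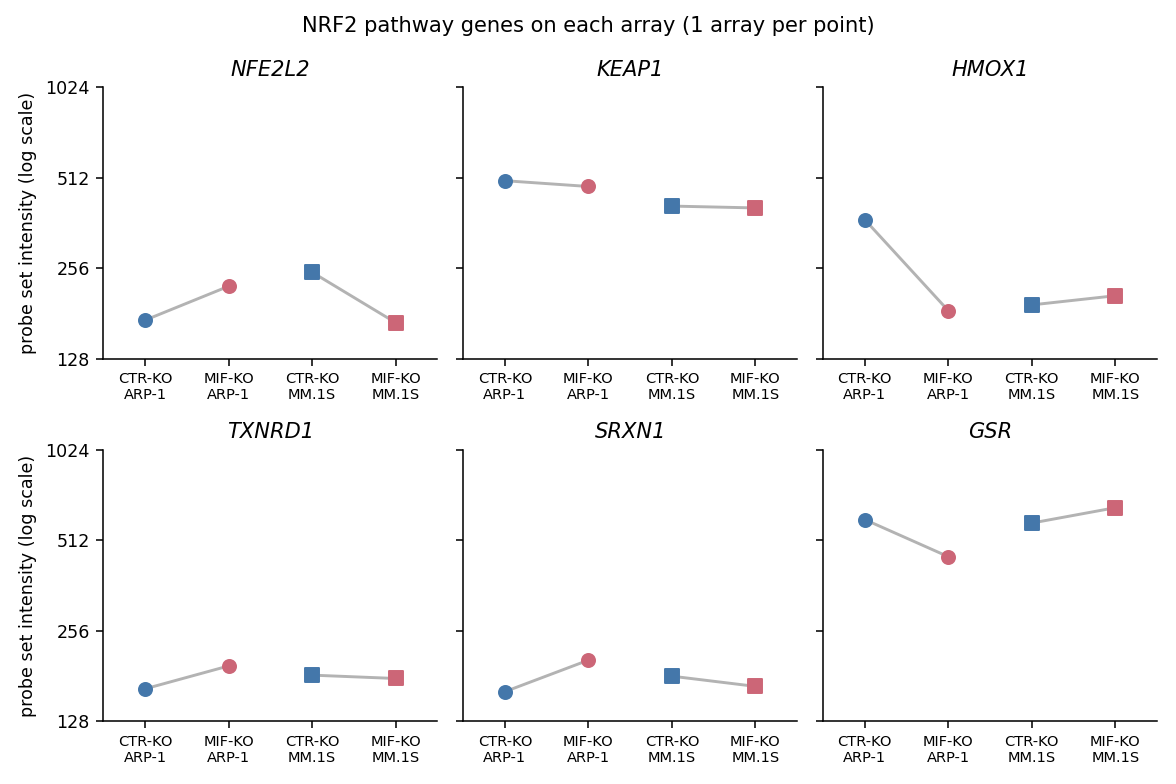
Probe set intensity (vertical axis, log scale) of 6 NRF2 pathway genes on each of the 4 arrays (horizontal axis); circles are ARP-1, squares MM.1S, blue CTR-KO, red MIF-KO, and a grey line joins the arrays of a line. HMOX1 stands at 371 on CTR-KO ARP-1 and between 185 and 207 on the other 3 arrays, while KEAP1 stays between 406 and 500.4 on all 4.

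HMOX1, the inducible heme oxygenase that breaks heme down to biliverdin, iron and carbon monoxide, had the largest difference of the 6 genes. Its intensity was 371 in CTR-KO ARP-1, 185 in MIF-KO ARP-1, 193 in CTR-KO MM.1S and 207 in MIF-KO MM.1S. The CTR-KO ARP-1 array was high, and the other 3 arrays lay within 1.12-fold of each other. In ARP-1 the control array was 2.01-fold above the MIF-KO array (log2 difference -1.01, percentile 2.79 of all tested genes), while in MM.1S the log2 difference was 0.10. The mean was -0.45 (SE 0.39, n = 2 lines) and its 95% interval ran from -1.45 up to 0.55 (36.6% to 146% of control). Its unadjusted limma p was 0.30 and its adjusted p 0.99995. Lower in MIF-KO ARP-1 by 1.5-fold or more was 1 of the 6 genes (HMOX1), where 11.9% of all tested genes were, and 0 of the 6 were that much higher, where 10.9% were. In MM.1S 0 of the 6 were 1.5-fold higher or lower in MIF-KO, against 5.12% and 2.89% of all tested genes.

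A macrophage marker was also highest on CTR-KO ARP-1. Its remaining arrays were up to 2.15-fold apart, and those of HMOX1 up to 1.12-fold. CD68, a lysosomal protein abundant in macrophages, had an intensity of 227 in CTR-KO ARP-1, 56.9 in MIF-KO ARP-1, 80.8 in CTR-KO MM.1S and 122 in MIF-KO MM.1S. The defining monocyte genes CD14 (7.94 to 10.2) and LYZ (6.99 to 9.19) lay under the median intensity of all probe sets on every array, and CSF1R was at 18.6 to 23.7. The plasma cell markers SDC1 and CD38 were also lower in MIF-KO ARP-1, while 4 of the 7 plasma cell markers measured were higher there. The part of any of these in the HMOX1 values was not tested.

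Both enzymes of the thioredoxin branch were lowest on CTR-KO ARP-1 and highest on MIF-KO ARP-1. TXNRD1, the selenoprotein that reduces thioredoxin with NADPH, had an intensity of 164 in CTR-KO ARP-1, 196 in MIF-KO ARP-1, 182 in CTR-KO MM.1S and 178 in MIF-KO MM.1S. The highest and lowest arrays were 1.19-fold apart. Its log2 difference was 0.25 in ARP-1 against -0.04 in MM.1S, with a mean of 0.11 (SE 0.30, n = 2 lines) and a 95% interval of 63.0% to 184% of control.

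SRXN1, the sulfiredoxin that restores over-oxidised peroxiredoxins, followed TXNRD1 across the arrays. Its intensity was 161 in CTR-KO ARP-1, 204 in MIF-KO ARP-1, 181 in CTR-KO MM.1S and 167 in MIF-KO MM.1S. The highest and lowest arrays were 1.27-fold apart, against 1.23-fold for KEAP1. The log2 difference was 0.35 in ARP-1 against -0.11 in MM.1S, with a mean of 0.12 (SE 0.31, n = 2 lines) and a 95% interval of 62.2% to 189% of control.

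GSR, the reductase that regenerates glutathione with NADPH, ran the other way. Its intensity was 600.4 in CTR-KO ARP-1, 452 in MIF-KO ARP-1, 584 in CTR-KO MM.1S and 657 in MIF-KO MM.1S. MIF-KO ARP-1 was the low array, and the 2 control arrays were close together. The log2 difference was -0.41 in ARP-1 against 0.17 in MM.1S, with a mean of -0.12 (SE 0.32, n = 2 lines) and a 95% interval of 52.2% to 162% of control.

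**Figure D2:**
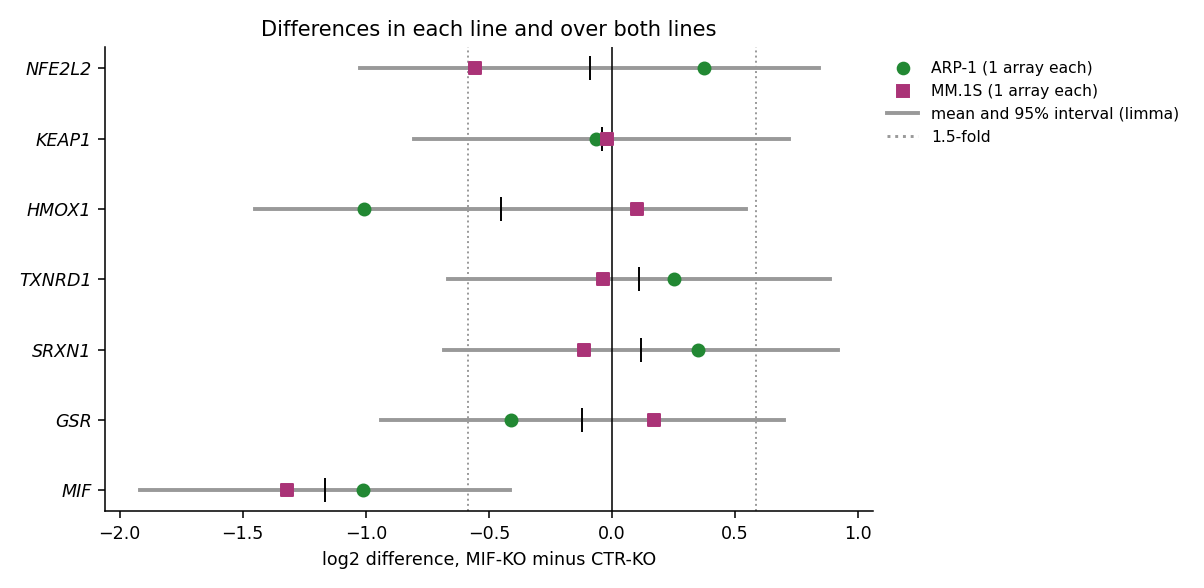
Log2 difference, MIF-KO minus CTR-KO (horizontal axis), of 6 NRF2 pathway genes and MIF (vertical axis): green circles are ARP-1 and purple squares MM.1S (1 array per condition), black ticks the mean, grey bars its 95% interval from limma, and dotted lines 1.5-fold. The interval includes 0 for all 6 pathway genes, and of these 6 only HMOX1 in ARP-1 (-1.01) lies past a dotted line, as MIF does in both lines (-1.01 and -1.32).

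The lines disagreed in sign for 5 of the 6 genes, KEAP1 being the exception (and of opposite sign too after quantile normalization). Differences of opposite sign were also the rule on these arrays, at 67.6% of all tested genes. NFE2L2, TXNRD1 and SRXN1 were higher in MIF-KO ARP-1 and lower in MIF-KO MM.1S, and HMOX1 and GSR the reverse. The signs of these 5 held with the arrays set to a common median and after quantile normalization. Whether the responses of the lines differ could not be tested, with 1 array per line and condition.

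Likeness over the 4 arrays was measured as the root mean square distance between log2 profiles centred on each gene's mean. The nearest pair among the 6 genes was TXNRD1 and SRXN1, at 0.05, and the farthest NFE2L2 and HMOX1, at 0.59. Of 7436 other tested genes, 193 (2.60%) lay nearer to TXNRD1 than SRXN1 did. HMOX1 was 0.34 from its nearest pathway gene, KEAP1, and 2017 other genes were nearer. Nearest to HMOX1 were DOLK, a kinase of dolichol for protein glycosylation (0.04), MPV17L2, SNRNP48, HCG18 and RPL22L1 (0.05). All were higher in CTR-KO ARP-1 than in MIF-KO ARP-1, which follows from picking them by nearness to HMOX1. Nearest to NFE2L2 were KIAA2013 (0.03), TIGD6, FICD, SKIL and TMUB2 (0.04). Nearest to the median profile of the 6 were TRIM56 (0.01), ZNF281, TEX261, IVD and LRPAP1 (0.02). With 4 arrays many genes share any profile, and the order within these lists has no error attached.

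Since TXNRD1 and SRXN1 were the nearest pair, the promoters of the listed genes were searched for the core of the antioxidant response element, TGACNNNGC, on both strands. Promoter windows from RefSeq (GRCh38.p14) were searched for 7 of the 9 genes, 10 windows in all, and the 250 bases before each start were read. HMOX1 had no window in the source used, and GSR was left out of the search. The core occurred in 3 genes (GCLM, KEAP1 and TXNRD1) and 4 windows, against 13.2% of all 27305 genes and 10.9% of all 35116 windows. No core was found in this stretch for SRXN1, NFE2L2, GCLC or NQO1. The AP-1 site TGANTCA (6.57% of all windows), the E-box CACGTG (6.34%) and the C/EBP-ATF site TTGCATCA (0.772%) had 0 matches in these windows. The 5 cores are shown with 10 bases on each side, read 5′ to 3′ on the strand of the gene, with the core in capitals. A core that reads GCNNNGTCA lies on the opposite strand.
GCLM, chr1:93909446-93909474, minus strand: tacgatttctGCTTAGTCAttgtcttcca
KEAP1, chr19:10502784-10502812, minus strand: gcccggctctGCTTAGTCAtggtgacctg
KEAP1, chr19:10502807-10502835, minus strand: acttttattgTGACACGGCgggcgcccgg
TXNRD1, chr12:104286920-104286948, plus strand: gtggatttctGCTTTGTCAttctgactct
TXNRD1, chr12:104215670-104215698, plus strand: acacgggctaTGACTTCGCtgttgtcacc
GCLM and KEAP1 carried the same 9 letters, GCTTAGTCA, at 34 to 26 and at 31 to 23 bases before a start. The cores of TXNRD1 lay 102 to 94 and 99 to 91 bases before 2 separate starts. KEAP1 and TXNRD1, with a core in the stretch read, differed by -0.06 and 0.25 in ARP-1. SRXN1, with none found in that stretch, differed by 0.35. Any part of a core in these differences was not tested, and bases outside the stretch were not read. These matches describe letters in a short window and say nothing of binding.

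The wider network was followed through 6 lists with 93 genes in all, 60 of them measured and 48 tested. None of the 48 passed the limma test between conditions, and 0 had an unadjusted p below 0.05. By 1.5-fold or more, MIF-KO ARP-1 had 7 of the 48 higher and 9 lower than its control, where 10.9% and 11.9% of all tested genes were. MIF-KO MM.1S had 6 of the 48 higher and 3 lower, where 5.12% and 2.89% of all tested genes were. The differences had opposite signs in the lines for 38 of 48, beside 67.6% of all tested genes.

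Partners in the control of NRF2 (10 tested) had medians of 0.11 in ARP-1 against -0.07 in MM.1S, with 1 gene at least 1.5-fold higher and 1 lower in each line. Of all tested genes, 10.9% were that much higher and 11.9% lower in ARP-1, and 5.12% and 2.89% in MM.1S. NFE2L1, the NRF2 relative that drives proteasome genes, had an intensity of 501 in CTR-KO ARP-1, 1153 in MIF-KO ARP-1, 1331 in CTR-KO MM.1S and 739 in MIF-KO MM.1S, the same order of arrays within each line as NFE2L2. DPP3, a peptidase that binds KEAP1, went the other way, at 530 and 252 in ARP-1 and 157 and 366 in MM.1S. SQSTM1, the autophagy receptor that sequesters KEAP1, differed by 0.46 in ARP-1 against -0.53 in MM.1S, and the small MAF gene MAFG by 0.27 and -0.44. GSK3B, a kinase that marks NRF2 for a second ubiquitin ligase, differed by -0.23 and -0.28.

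In the glutathione list (10 tested), medians were -0.31 in ARP-1 against 0.12 in MM.1S. At 1.5-fold, 2 genes were higher and 2 lower in ARP-1, beside 10.9% and 11.9% of all tested genes. In MM.1S 2 were higher and 0 lower, beside 5.12% and 2.89%. GSS, which completes glutathione, had an intensity of 234 in CTR-KO ARP-1, 126 in MIF-KO ARP-1, 109 in CTR-KO MM.1S and 191 in MIF-KO MM.1S. Its pattern was shared in sign by GSR and by the glutaredoxin GLRX3 (-0.66 and 0.44). The cysteine-forming enzymes opposed it: CBS was at 189, 477, 378 and 294 on the arrays in the same order, and CTH at 104, 948, 1087 and 775. Both were lowest on CTR-KO ARP-1. The lipid peroxidase GPX4 differed by -0.32 and -0.08.

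In the thioredoxin list 8 of the 10 tested genes had a lower value in MIF-KO ARP-1, and 8 of 10 a higher value in MIF-KO MM.1S, with medians of -0.32 and 0.34. Over all tested genes 52.3% were lower in the former and 55.1% higher in the latter. TXNRD1 and SRXN1 had signs opposite to most genes of their own branch. Thioredoxin, TXN, had an intensity of 2437 in CTR-KO ARP-1, 1686 in MIF-KO ARP-1, 1841 in CTR-KO MM.1S and 2503 in MIF-KO MM.1S. The mitochondrial peroxiredoxin PRDX3 differed by -0.51 and 0.56, PRDX6 by -0.36 and 0.34 and the mitochondrial reductase TXNRD2 by -0.63 and 0.36. TXNIP, the inhibitor of thioredoxin, was higher in MIF-KO ARP-1 and lower in MIF-KO MM.1S, at 287 in CTR-KO ARP-1 and between 920 and 1858 on the other arrays.

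**Figure D3:**
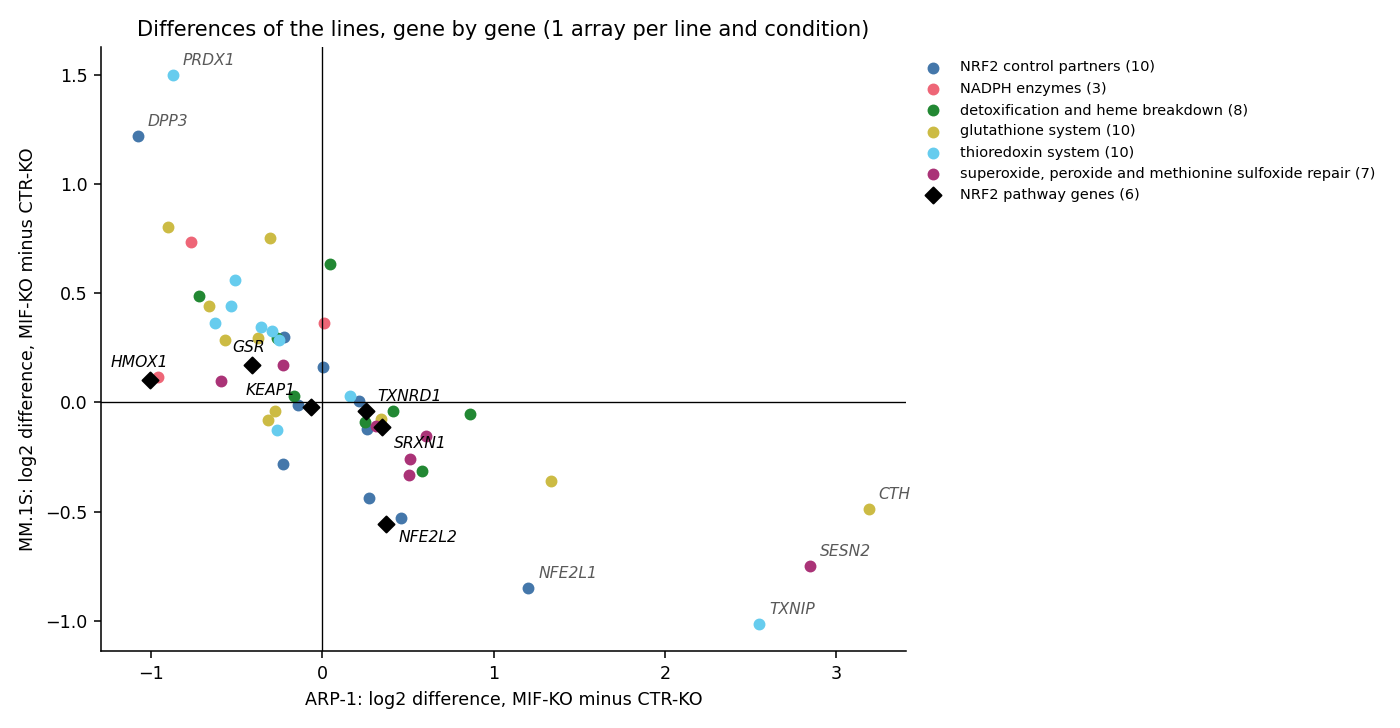
Log2 difference, MIF-KO minus CTR-KO, in ARP-1 (horizontal axis) and MM.1S (vertical axis) for the tested genes of 6 wider lists (coloured points) and 6 NRF2 pathway genes (black diamonds); 1 array per line and condition. Of the 48 coloured points, 38 have opposite signs in the lines, and the black diamonds lie near the centre with HMOX1 at -1.01 in ARP-1.

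Heme breakdown and detoxification genes (8 tested) had medians of 0.15 in ARP-1 against -0.01 in MM.1S. HMOX2, the constitutive heme oxygenase, had an intensity of 121 in CTR-KO ARP-1, 73.5 in MIF-KO ARP-1, 58.4 in CTR-KO MM.1S and 81.9 in MIF-KO MM.1S, highest on the same array as HMOX1. The biliverdin reductases, which act after heme oxygenase, were not alike: BLVRB differed by 0.58 and -0.31 and BLVRA by -0.16 and 0.03. MGST2, a microsomal glutathione transferase, differed by 0.86 and -0.05.

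Of the NADPH list, which also holds pentose phosphate enzymes that do not form NADPH themselves (TKT and TALDO1), 3 genes were tested. PGD of the pentose phosphate pathway had an intensity of 601 in CTR-KO ARP-1, 354 in MIF-KO ARP-1, 360 in CTR-KO MM.1S and 599.8 in MIF-KO MM.1S. Transketolase, TKT, differed by -0.96 and 0.11, and TALDO1 by 0.01 and 0.36. In the list for superoxide, peroxide and methionine sulfoxide repair (7 tested), medians were 0.51 in ARP-1 against -0.15 in MM.1S. Signs were opposite in the lines for 7 of 7, beside 67.6% of all tested genes. SESN2, a sestrin that promotes the removal of KEAP1, was at 119 in CTR-KO ARP-1 and between 703 and 1179 on the other arrays, and catalase, CAT, differed by 0.31 and -0.11.

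**Figure D4:**
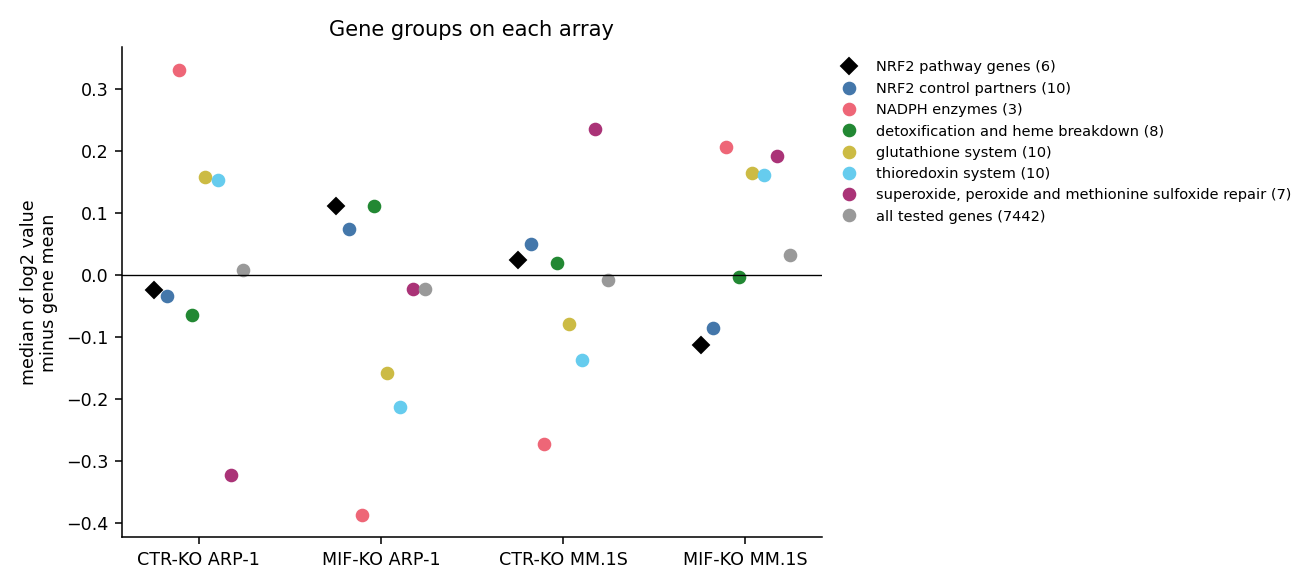
Median of log2 value minus each gene's mean (vertical axis) for 6 NRF2 pathway genes, 6 wider lists and all tested genes on each array (horizontal axis), with the number of tested genes in brackets. The median of the 6 pathway genes stays between -0.11 and 0.11, while that of the NADPH list (3 genes) runs from -0.39 on MIF-KO ARP-1 to 0.33 on CTR-KO ARP-1. Single pathway genes go further, as HMOX1 does at 0.70 on CTR-KO ARP-1.

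Between the lines, MM.1S minus ARP-1, 0 of the 6 pathway genes passed limma's test, against 0% of all tested genes, and each had an adjusted p of 0.9999. At an unadjusted p below 0.05 there were 0 of the 6 and 87 of 7442. The mean difference was 0.06 for NFE2L2 (SE 0.36), -0.39 for HMOX1 (SE 0.39), 0.01 for TXNRD1 (SE 0.30), -0.06 for SRXN1 (SE 0.31) and 0.25 for GSR (SE 0.32). For HMOX1 the lines differed by -0.94 on the CTR-KO arrays and by 0.16 on the MIF-KO arrays. NFE2L2 differed by 0.53 and -0.40 and GSR by -0.04 and 0.54 on the same pairs, so which line was higher depended on the condition for both. KEAP1 alone of the 6 had the same sign and nearly the same size in both conditions.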

How the data were processed

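Gene expression was measured on 4 whole-transcript arrays. The authors deposited a linear intensity for each of 53617 probe sets (2.74 to 15935). The submitters' processing notes list RMA and limma, without role or version. Background step, scaling and build: not given in the sources used here. A platform annotation gave 1 gene symbol to 16098 probe sets, and only these were used. Probe sets with several symbols or none were left out. Intensities were taken to log2 with no pseudocount, 1 probe set per gene (highest mean), and 7442 genes, those whose mean reached the median of gene means (4.97), were tested in limma 3.58.1 (R 4.3.3) with cell line and condition as terms and eBayes with a trend (prior degrees of freedom 3.99), Benjamini-Hochberg adjusted. Cell line pairs the arrays by the labels, although deviations of arrays of a line correlated at r = -0.37 across genes. The fit was tested on simulated data in which condition had the same effect in both lines. That test therefore does not cover lines that disagree, as these often did. Arrays give no depth, and their number limits the precision. The pathway genes, wider lists and tests were chosen with earlier results of these data known. Named from each wider list were up to 5 tested genes by size of mean difference and 3 more by size within a line, and 5 nearest profiles each for HMOX1, NFE2L2 and the median. CD68, CD14, LYZ, CSF1R, LUM and DCN come from the marker lists. Alternatives are the exchange of the ARP-1 arrays, the line term, filters, scalings, a pseudocount of 16, the mean over probe sets, no trend and each line alone.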

Additional observations from a re-analysis of the deposited data

Results flagged for a closer look

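For 5 of the 6 measured NRF2 pathway genes the difference between MIF-KO and CTR-KO had opposite signs in ARP-1 and MM.1S, beside 67.6% of all tested genes. With the ARP-1 arrays exchanged as their descriptions have it, these 5 have the same sign in both lines. The response in ARP-1 minus that in MM.1S, on the log2 scale, was 0.93 for NFE2L2, -1.11 for HMOX1, 0.29 for TXNRD1, 0.46 for SRXN1 and -0.58 for GSR. These differences between the lines were not tested, since each rests on 1 array per line and condition.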

How the results depend on the processing

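The exchange of the ARP-1 arrays, which their descriptions would ask for, moved most. It turned the mean difference of KEAP1 to 0.022, HMOX1 to 0.55, TXNRD1 to -0.15, SRXN1 to -0.23 and GSR to 0.29, took NFE2L2 from -0.091 to -0.47, and 401 genes over the whole array passed in place of 0. None of the 6 pathway genes was among them (adjusted p 0.16 for NFE2L2 and 0.17 for HMOX1, the lowest). In every other fit listed above that used both lines, 0 genes passed and the 6 mean differences kept their sign. The fit with no replicate block (no line term) called 0 genes. Leaving out a line gave a median over the 6 genes of -0.029 (MM.1S alone) to 0.095 (ARP-1 alone), with no test. Single genes turned round with it. With ARP-1 alone, NFE2L2 had the other sign than its mean over both lines (0.37). With MM.1S alone, HMOX1 (0.10), TXNRD1 (-0.04), SRXN1 (-0.11) and GSR (0.17) did. Only KEAP1 kept its sign in either line. At the lower fold tried, a ratio of 5 to 4, 4 of the 6 differed in ARP-1 and 1 in MM.1S, beside 46.5% and 30.2% of all tested genes. At 1.5-fold 1 and 0 did (22.8% and 8.01% of all), and quantile normalization brought MM.1S to 1 (NFE2L2). No scaling moved the median of all tested genes by over 0.1.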
